A study of Mus musculus with 31 samples.

Results

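The genes of catecholamine synthesis, storage, uptake and breakdown were followed in 31 mouse neuroblastomas (NB). The 9 genes were taken by symbol from the 17306 rows of the array table, where each has 1 row, and they are *Th*, *Ddc*, *Dbh*, *Pnmt*, *Gch1*, *Slc18a1*, *Slc18a2*, *Slc6a2* and *Maoa*. The tumors came from *TH-MYCN* mice, in which the tyrosine hydroxylase (TH) promoter drives the *MYCN* oncogene in cells of the sympathetic lineage. There were 10 tumors with wild-type *Alk* (*MYCN* tumors), 10 with the knock-in (KI) R1279Q mutation and 11 with the KI F1178L mutation of the *Alk* receptor (*MYCN*/*Alk* tumors), and all 31 carried the transgene. RNA of each tumor was hybridized to 1 Affymetrix mouse array, and values are log2 intensities.

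The labels give the strain as 129S2 or 129B6F1 (the F1 of 129×1/SvJ and C57Bl/6) for every tumor without saying which. The list of *MYCN*/*Alk* tumors with genomic profiles settles it for 18 of them. These were 4 F1178L tumors in 129S2 mice aged 5.14 to 6.29 weeks, 6 F1178L tumors in 129B6F1 mice aged 9.14 to 19.14 weeks, 5 R1279Q tumors in 129S2 mice aged 8.29 to 10.71 weeks and 3 R1279Q tumors in 129B6F1 mice aged 16.57 to 27.14 weeks. The 18 mice were 7 females and 11 males, and all 5 R1279Q tumors of the 129S2 background were from males. Background and age of the 10 *MYCN* tumors, 2 R1279Q tumors and 1 F1178L tumor were not given, so that a difference from *MYCN* tumors cannot be told apart from one of background or age. *MYCN*/*Alk* mice can carry tumors at several sites. Whether tumors shared a mouse was not given, and tumors 1 and 2, and 16 and 19, had the same mutation, background, sex and age. The p values treat the tumors as independent.

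Catecholamines are made from tyrosine in a fixed order of steps. Tyrosine hydroxylase (*Th*) makes DOPA with the cofactor tetrahydrobiopterin, whose own synthesis starts with GTP cyclohydrolase 1 (*Gch1*). DOPA decarboxylase (*Ddc*) makes dopamine, which is carried into vesicles by the vesicular monoamine transporters Vmat1 (*Slc18a1*) and Vmat2 (*Slc18a2*). Inside the vesicle dopamine beta-hydroxylase (*Dbh*) makes noradrenaline, and in chromaffin cells of the adrenal medulla phenylethanolamine N-methyltransferase (*Pnmt*) turns it into adrenaline. Released noradrenaline is taken back by the transporter *Slc6a2* and broken down by monoamine oxidase A (*Maoa*). NB arises from the sympathoadrenal lineage, and catecholamine products are used in its diagnosis.

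Upstream sequence was at hand for 6 of the 9 genes, in 7 windows of 250 bases ending at an annotated start (RefSeq, GRCm38.p6). Cyclic AMP response elements (CRE), the sites of CREB family factors, were searched as the full TGACGTCA and as its first 5 letters, TGACG, on both strands, and a full site holds 2 of these, overlapping. The 3 genes that differed between F1178L and R1279Q tumors, *Th*, *Dbh* and *Gch1*, are shown with *Slc18a2*, which rose with both mutations. Each runs 5′ to 3′ on the strand of the gene, and capitals mark every TGACG.
*Th*, chr7:142899996-142900245 (- strand): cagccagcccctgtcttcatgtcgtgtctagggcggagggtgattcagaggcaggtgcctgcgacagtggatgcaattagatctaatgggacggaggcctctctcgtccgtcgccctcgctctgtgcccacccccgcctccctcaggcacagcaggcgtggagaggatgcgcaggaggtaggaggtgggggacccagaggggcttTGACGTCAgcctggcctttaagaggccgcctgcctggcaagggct
*Dbh*, chr2:27165257-27165506 (+ strand): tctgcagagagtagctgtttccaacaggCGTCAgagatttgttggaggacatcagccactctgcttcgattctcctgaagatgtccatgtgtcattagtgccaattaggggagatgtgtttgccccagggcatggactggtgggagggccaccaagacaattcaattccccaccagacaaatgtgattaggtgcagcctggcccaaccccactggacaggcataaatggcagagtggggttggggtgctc
*Gch1*, chr14:47189414-47189663 (- strand): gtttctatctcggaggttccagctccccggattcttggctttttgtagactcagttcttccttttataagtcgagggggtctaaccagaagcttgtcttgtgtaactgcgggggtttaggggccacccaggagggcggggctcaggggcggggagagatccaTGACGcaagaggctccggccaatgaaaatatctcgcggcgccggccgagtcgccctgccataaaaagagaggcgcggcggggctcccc
*Slc18a2*, chr19:59260628-59260877 (+ strand): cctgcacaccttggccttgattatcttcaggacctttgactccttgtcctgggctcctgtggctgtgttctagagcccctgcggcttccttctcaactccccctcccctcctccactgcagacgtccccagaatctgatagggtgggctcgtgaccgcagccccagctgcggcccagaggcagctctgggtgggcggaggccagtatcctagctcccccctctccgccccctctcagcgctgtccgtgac

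The full site stood in the *Th* window alone among these 7, from 45 to 38 bases before the start, and in 1.546% of the 32851 windows of the same length in the table. TGACG was found at 222 bases before the start of *Dbh*, at 88 in *Gch1* and at 209 in *Maoa*, but in neither window of *Ddc* nor in that of *Slc18a2*, and 17.765% of all windows held one. CACGTG, the E-box form bound by MYC proteins, was in none of the 7 windows and in 6.021% of all. TAATTA, a homeodomain core, was likewise in none and in 4.84% of all. A match of letters is a description of the sequence, and binding was not measured.

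In F1178L against *MYCN* tumors, the 6 catecholamine genes measured above background in every tumor were all higher. Rows above log2 4 in at least 10 tumors, 9322 in all, were compared by limma, a linear model that shares information on the spread between genes, and adjusted over all tested rows by the Benjamini-Hochberg procedure, 0.05 being the limit. Of the 9 genes, 8 passed this filter and *Pnmt* did not. *Slc18a1* and *Slc6a2* were close to background and passed largely through F1178L tumors, so that counts are given over the 6 genes above log2 4 in all 31 tumors, *Th*, *Ddc*, *Dbh*, *Gch1*, *Slc18a2* and *Maoa*. All 6 rose in F1178L tumors, where 20.1% of the tested rows were called higher. In R1279Q against *MYCN* tumors 5 of the 6 rose, with 10.8% of rows called higher, and *Gch1* did not pass the threshold. In F1178L against R1279Q tumors 3 of the 6 were higher, with 2.83% of rows called higher. None of the 6 was called lower in these comparisons. The median log2 difference of the 6 genes was 2.18, 1.303 and 0.88, against -0.07, -0.01 and -0.06 over all tested rows. Both comparisons with *MYCN* share the *MYCN* tumors. In bulk tumor RNA, fewer cells of a type and less RNA per cell cannot be told apart.

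**Figure D1:**
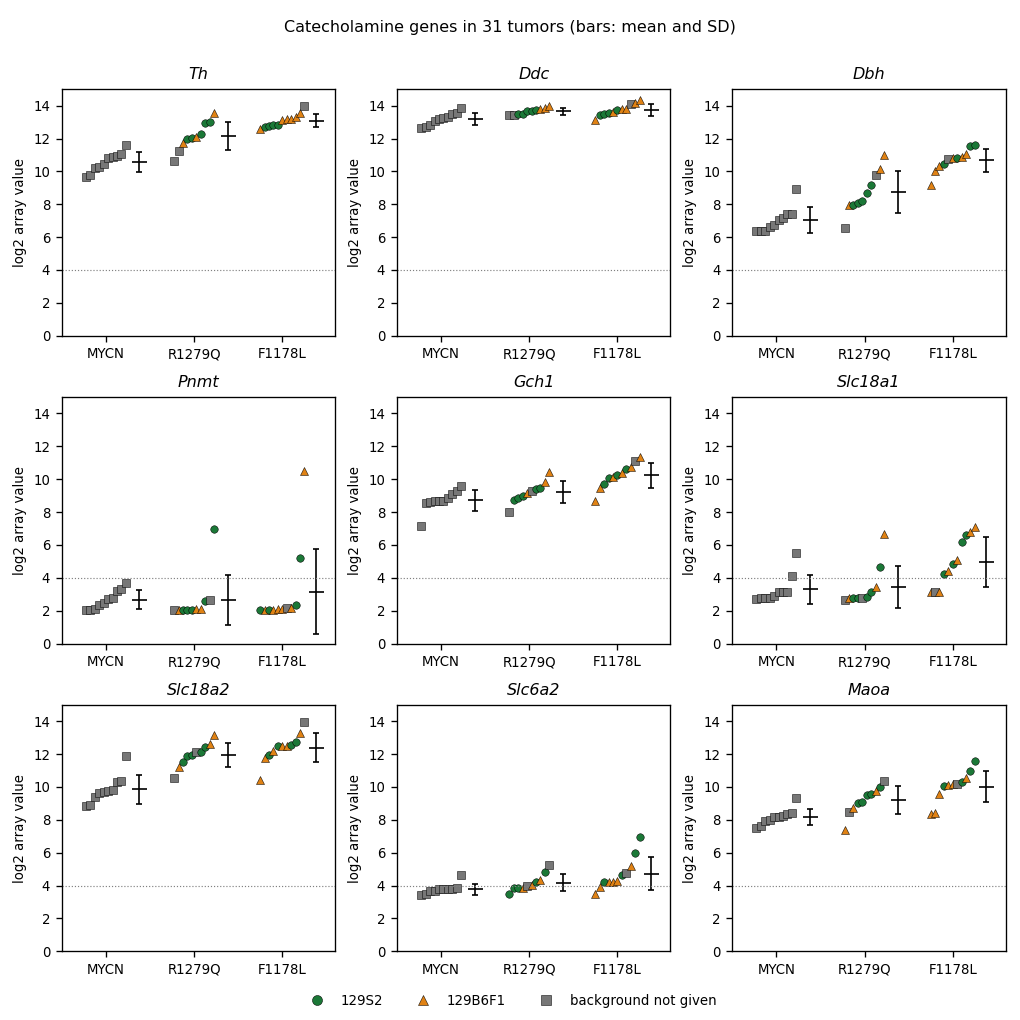
Log2 array values of the 9 genes (vertical axis) in each tumor of the 3 genotypes (horizontal axis), with symbols for the background, the mean and SD beside each group, and a dotted line at log2 4. *Th* and *Dbh* of the 11 F1178L tumors lie above all 10 *MYCN* tumors, and *Pnmt* exceeds log2 4 in 3 tumors.

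*Th*, the gene of the rate-limiting enzyme, had its lowest, median and highest values at 9.69, 10.65 and 11.59 in *MYCN* tumors, at 10.66, 12.05 and 13.57 in R1279Q tumors and at 12.58, 13.12 and 13.96 in F1178L tumors. The 11 F1178L tumors thus all lay above the 10 *MYCN* tumors, and 8 of 10 R1279Q tumors did. The log2 difference was 2.52 in F1178L against *MYCN* tumors (standard error, SE, 0.27, limma's adjusted p = 4.93e-08), a 5.73-fold rise, and 1.58 in R1279Q against *MYCN* tumors (SE 0.28, adjusted p = 0.000285). F1178L exceeded R1279Q tumors by 0.94 (SE 0.27, adjusted p = 0.0327). The R1279Q tumors below all F1178L tumors numbered 7 of 10. The lowest of them, at 10.66 and 11.26, were tumors 24 and 17, whose background was not given. The difference missed the threshold without R1279Q tumor 24 (0.77, adjusted p = 0.0759), 17 (adjusted p = 0.0529) or 18 (adjusted p = 0.057), or without F1178L tumor 36 (adjusted p = 0.0645). With background as a covariate, in 18 tumors, it was 0.50 (adjusted p = 0.182).

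*Ddc* was the least variable of the 6 genes between genotypes. Its lowest, median and highest values were 12.65, 13.23 and 13.85 in *MYCN* tumors, 13.40, 13.67 and 13.95 in R1279Q tumors and 13.14, 13.73 and 14.36 in F1178L tumors, and the ranges overlapped, with 7 of 10 *MYCN* tumors below all R1279Q tumors. The rise was 0.55 in F1178L (SE 0.14, adjusted p = 0.00199 from limma) and 0.46 in R1279Q tumors (SE 0.14, adjusted p = 0.0262). Between the mutations the difference was 0.10, with a 95% interval from -0.19 to 0.39 (adjusted p = 0.698). The R1279Q rise missed the threshold without *MYCN* tumor 3 (adjusted p = 0.0514) or 32 (adjusted p = 0.0535).

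*Dbh*, whose product commits dopamine to noradrenaline, showed the widest differences of the 8 tested genes in F1178L tumors. It was at 6.36, 6.89 and 8.91 (lowest, median, highest) in *MYCN* tumors, at 6.58, 8.44 and 11.01 in R1279Q tumors and at 9.16, 10.79 and 11.61 in F1178L tumors. The F1178L tumors did not overlap with the *MYCN* tumors, while 4 of 10 R1279Q tumors lay above all *MYCN* tumors. *Dbh* and *Th* were the members for which F1178L and *MYCN* tumors separated fully, as 1.54% of tested rows did with F1178L higher. The log2 difference was 3.64 in F1178L against *MYCN* tumors (SE 0.40, adjusted p = 5.51e-08 from limma), a 12.5-fold rise. It was 1.73 in R1279Q against *MYCN* tumors (SE 0.41, adjusted p = 0.00394) and 1.92 in F1178L against R1279Q tumors (SE 0.40, adjusted p = 0.00596). With background and sex as covariates, in 18 tumors, the difference between the mutations was 1.59 and missed the threshold (adjusted p = 0.0537). The R1279Q tumors were spread over more than the other groups, with an SD of 1.29 against 0.78 in *MYCN* and 0.69 in F1178L tumors.

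*Gch1*, which starts the synthesis of the tyrosine hydroxylase cofactor, was called higher in F1178L than in R1279Q tumors, but the groups overlapped. Its lowest, median and highest values were 7.13, 8.68 and 9.57 in *MYCN* tumors, 8.03, 9.22 and 10.47 in R1279Q tumors and 8.69, 10.28 and 11.32 in F1178L tumors. It rose by 1.52 in F1178L against *MYCN* tumors (SE 0.29, adjusted p = 0.000114 from limma) and was 1.01 higher in F1178L than in R1279Q tumors (SE 0.29, adjusted p = 0.0321). In R1279Q against *MYCN* tumors the difference was 0.52, with a 95% interval from -0.09 to 1.12 (adjusted p = 0.233). The call between the mutations was lost without any of the R1279Q tumors 18, 19 and 24 or the F1178L tumors 29, 31 and 36, with adjusted p from 0.0506 to 0.0752. With background as a covariate the difference was 0.71 (adjusted p = 0.165).

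*Pnmt*, the gene of adrenaline synthesis, was at or near the background of the array in 28 of 31 tumors. It reached 10.47 in F1178L tumor 4, 6.96 in R1279Q tumor 14 and 5.23 in F1178L tumor 29, and at most 3.65 in the others. The 3 tumors came from both backgrounds and both mutations, and none of the 10 *MYCN* tumors exceeded log2 4. *Pnmt* is a marker of chromaffin cells, and the source of its signal in these 3 tumors was not tested. All 8 adrenal cortex genes looked up, among them *Star*, *Cyp11a1* and *Nr5a1*, stayed below log2 4 in these 3 tumors. *Chga*, chromogranin A of secretory granules, was at 12.59, 9.73 and 10.25 in tumors 4, 14 and 29. Its median was 10.20 in F1178L and 9.17 in R1279Q tumors. The neuropeptide gene *Npy* was at 13.87, 5.88 and 10.08 in the same tumors, and the medians were 9.40 and 7.41. Tumor 4 had the highest F1178L value of both genes. *Chgb* was at 13.51, 13.19 and 12.15 and *Cartpt* at 10.60, 12.17 and 14.51. The enkephalin precursor *Penk* was near background, at 4.42, 3.70 and 4.03. Being above log2 4 in 3 tumors only, *Pnmt* was not tested.

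*Slc18a2*, which encodes Vmat2, the transporter of sympathetic neurons, rose with both mutations. It was at 8.86, 9.71 and 11.91 (lowest, median, highest) in *MYCN* tumors, at 10.54, 12.04 and 13.18 in R1279Q tumors and at 10.45, 12.49 and 13.97 in F1178L tumors. In each comparison with *MYCN*, 9 of the 10 *MYCN* tumors lay below all tumors of the mutation, and tumor 26 was the exception. The rise was 2.53 in F1178L (SE 0.35, adjusted p = 2.01e-06 from limma) and 2.10 in R1279Q tumors (SE 0.36, adjusted p = 0.000237). The difference between the mutations was 0.43, with a 95% interval from -0.29 to 1.15 (adjusted p = 0.45).

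*Slc18a1*, which encodes Vmat1, the form of endocrine chromaffin cells, was above log2 4 in 8 of 11 F1178L, 2 of 10 R1279Q and 2 of 10 *MYCN* tumors. It passed the filter largely through F1178L tumors, where it is high, so its p values are given as description only. The lowest, median and highest values were 3.12, 4.83 and 7.08 in F1178L tumors, 2.63, 2.82 and 6.66 in R1279Q tumors and 2.68, 3.02 and 5.53 in *MYCN* tumors. F1178L exceeded *MYCN* tumors by 1.66 on the fitted scale (SE 0.53, adjusted p = 0.0111 from limma), or by at least 0.80 when values of the lower group under log2 4 were set to 4. It exceeded R1279Q tumors by 1.51 (adjusted p = 0.0661), or by at least 0.63, and this difference passed without R1279Q tumor 9 (1.87, adjusted p = 0.0214), F1178L tumor 11 (1.69, adjusted p = 0.0385) or F1178L tumor 37 (1.69, adjusted p = 0.0481). The 3 highest F1178L tumors, 2, 4 and 29, included both F1178L tumors with *Pnmt* above log2 4.

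*Slc6a2*, the noradrenaline transporter that marks uptake-competent sympathetic cells, was low on these arrays. Its lowest, median and highest values were 3.43, 3.78 and 4.65 in *MYCN* tumors, 3.50, 4.002 and 5.27 in R1279Q tumors and 3.49, 4.26 and 6.97 in F1178L tumors. It exceeded log2 4 in 1, 5 and 9 tumors of these groups. *Slc6a2* too passed the filter largely through F1178L tumors, so its p values are given as description only. F1178L exceeded *MYCN* tumors by 0.92 (SE 0.29, adjusted p = 0.0113 from limma), or by at least 0.64 with the lower group's values set to 4 or more. The highest values, 6.97 and 5.96, were in the 129S2 tumors 29 and 31, both from females. The F1178L tumors 28 and 30, from 129S2 males, were at 4.21 and 4.65. With 129B6F1 tumors as the only F1178L tumors, the difference from *MYCN* was 0.42 (adjusted p = 0.146).

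*Maoa*, which degrades noradrenaline in the cytosol of the cell, was at 7.52, 8.19 and 9.35 (lowest, median, highest) in *MYCN* tumors, at 7.40, 9.32 and 10.34 in R1279Q tumors and at 8.36, 10.16 and 11.58 in F1178L tumors. It rose by 1.85 in F1178L (SE 0.34, adjusted p = 6.81e-05 from limma) and by 1.02 in R1279Q tumors (SE 0.34, adjusted p = 0.0372). The R1279Q call was lost on leaving out any of 10 single tumors, with adjusted p up to 0.0764, among them R1279Q tumors 17, 16 and 5 and *MYCN* tumors 34 and 32. It was also lost with no filter on low rows (adjusted p = 0.0691) and with the R1279Q tumors of 129B6F1 only (0.46, adjusted p = 0.584). Between the mutations the difference was 0.82, with a 95% interval from 0.13 to 1.51 (adjusted p = 0.113), and it passed without F1178L tumor 1 (0.98, adjusted p = 0.0429) or 4 (0.99, adjusted p = 0.0429).

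**Figure D2:**
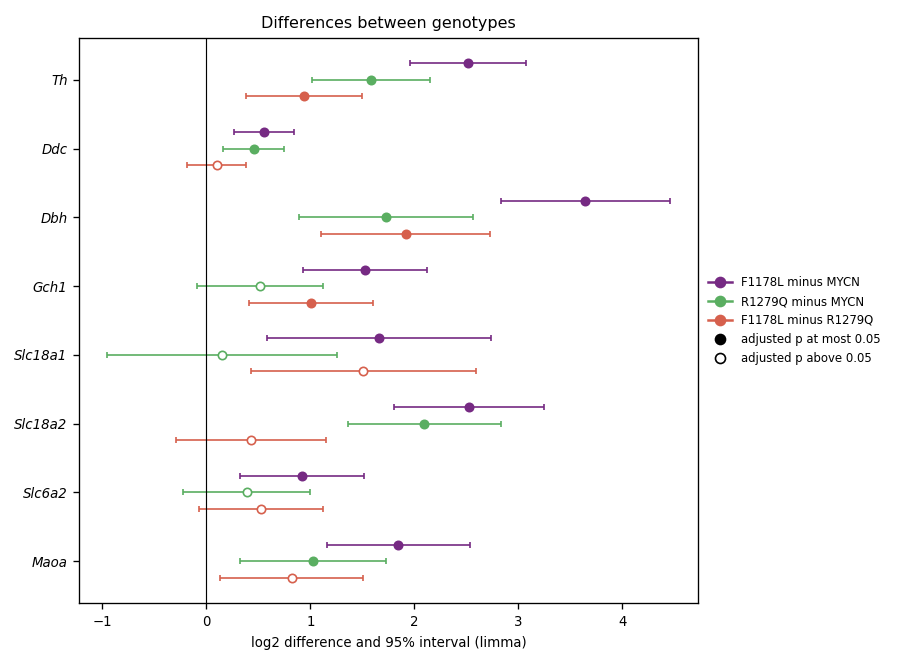
Log2 difference of each tested gene between genotypes (horizontal axis) with its 95% interval from limma, filled where the adjusted p passed the threshold. In F1178L against *MYCN* tumors the points of the 6 genes above log2 4 in every tumor are filled, from 0.55 for *Ddc* to 3.64 for *Dbh*, as are those of *Slc18a1* and *Slc6a2*, which lie near the background, and in F1178L against R1279Q tumors those of *Th*, *Dbh* and *Gch1* are filled.

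One *MYCN* tumor, number 26, stood apart in several of these genes. It had the highest *MYCN* value of *Dbh* (8.91, the next being 7.39), *Slc18a2* (11.91, the next 10.37), *Maoa* (9.35, the next 8.39) and *Slc6a2* (4.65, the next 3.87), and also of *Ddc* (13.85). Its *Th* of 10.20 and *Gch1* of 8.59 lay inside the range of the other *MYCN* tumors. R1279Q tumor 24 had the lowest R1279Q value of *Th*, *Ddc*, *Dbh*, *Gch1* and *Slc18a2*, at 10.66, 13.40, 6.58, 8.03 and 10.54. All 5 values were within the range of the *MYCN* tumors.

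**Figure D3:**
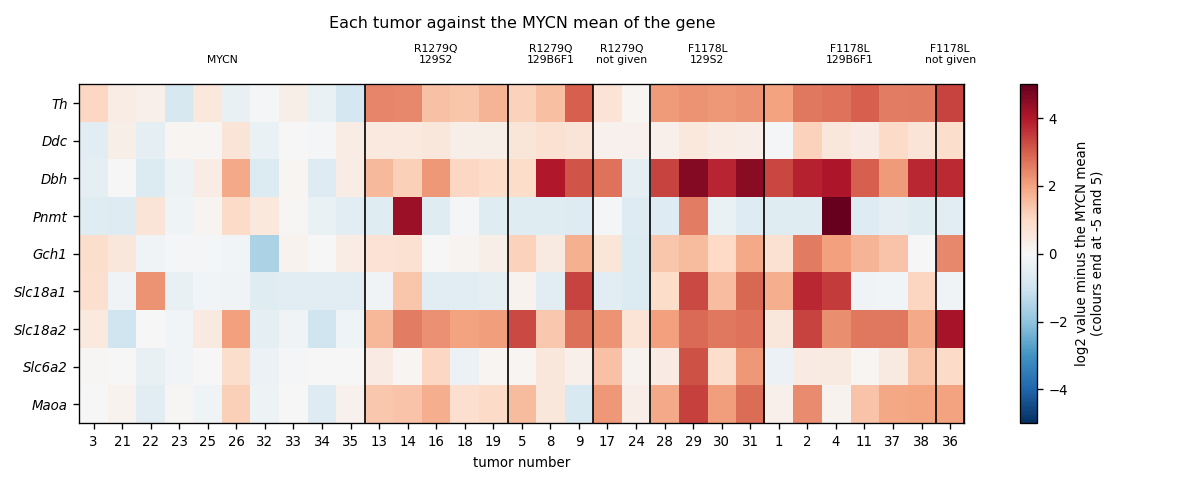
Log2 value of each tumor minus the mean of the *MYCN* tumors for the same gene (colour), with genes in rows and tumors, by number, in columns grouped by genotype and background. *MYCN* tumor 26 is above the *MYCN* mean at *Dbh*, *Slc18a2*, *Maoa* and *Slc6a2*, and *Pnmt* stands out in R1279Q tumor 14 and F1178L tumor 4.

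The 2 mutations were then compared within each background, in a model with 4 groups of the 18 tumors. Within 129S2, *Dbh* was higher in F1178L tumors. Its values were 10.42, 10.82, 11.54 and 11.61 in F1178L tumors and 7.95, 8.07, 8.21, 8.66 and 9.20 in R1279Q tumors, so that the groups did not overlap. The log2 difference was 2.68 (SE 0.52, adjusted p = 0.00666 from limma), a 6.41-fold difference. *Dbh* was the 1 gene of the 8 tested that passed, where 5.13% of rows were called higher (478 higher and 614 lower, or 332 and 692 with all arrays set to the same median). The groups also did not overlap for *Gch1*, with a difference of 1.08 (adjusted p = 0.098), and for *Maoa*, with 1.27 (adjusted p = 0.106), a separation seen in 10.5% of rows with F1178L higher. *Slc6a2* was 1.39 higher (adjusted p = 0.0577). It lies near the background and passed the filter largely through F1178L tumors, so this p value is description only. Its difference ran from 0.88 without F1178L tumor 29 to 1.80 without F1178L tumor 28. *Th* differed by 0.33, with a 95% interval from -0.34 to 0.999 (adjusted p = 0.526). Neuronal markers moved with these genes here, 6 of 14 being called higher in F1178L tumors and 0 lower, among them *Gap43* (1.34), *Snap25* (1.16) and *Uchl1* (1.14), and their part in the result was not tested. The F1178L mice of this background were younger than all R1279Q mice, so mutation and age cannot be told apart here. Sex differed too, as 2 of the 4 F1178L tumors and none of the 5 R1279Q tumors were from females. These 2, tumors 29 and 31, had the highest *Dbh*, *Maoa* and *Slc6a2* values of the comparison. With sex as a covariate 1 of the 8 genes and 507 rows were called.

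Within 129B6F1, no catecholamine gene differed between the mutations by limma. The unadjusted p was under 0.05 for 0 of the 8 genes, and 0% of rows were called. For *Dbh* the values were 9.16, 10.57 and 11.08 (lowest, median, highest) in the 6 F1178L tumors and 7.94, 10.17 and 11.01 in the 3 R1279Q tumors. The difference was 0.67, with a 95% interval from -0.48 to 1.82 (adjusted p = 0.707). For *Th* it was 0.70, with an interval from -0.01 to 1.41 (adjusted p = 0.522). The R1279Q group held 3 tumors, and the *Dbh* difference moved between -0.22 without R1279Q tumor 5 and 1.32 without R1279Q tumor 8.

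**Figure D4:**
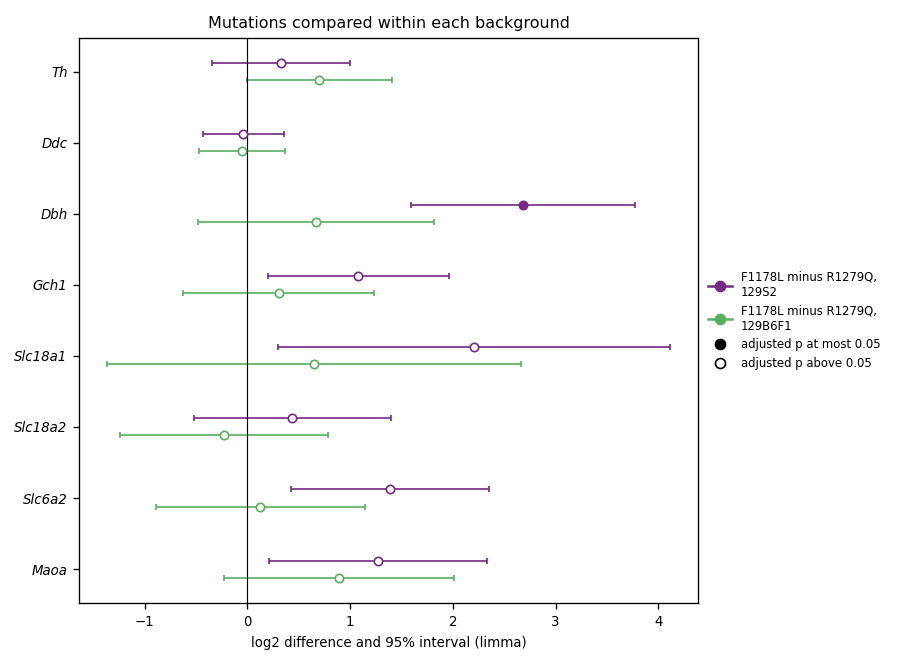
Log2 difference between F1178L and R1279Q tumors for each tested gene (horizontal axis) with its 95% interval, within 129S2 (4 and 5 tumors) and within 129B6F1 (6 and 3 tumors). *Dbh* within 129S2, at 2.68, is the filled point, and all others missed the threshold.

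No catecholamine gene was called between backgrounds. Over both mutations, 129B6F1 and 129S2 tumors were compared with 4.62% of all rows called, and 0 of 8 genes passed by limma. *Maoa* was the 1 gene with an unadjusted p under 0.05 there, at -1.01 in 129B6F1 against 129S2 tumors (SE 0.37, adjusted p = 0.109). Within F1178L, 6.31% of rows and 0 of 8 genes were called, and *Maoa* at -1.20 (adjusted p = 0.134) and *Slc6a2* at -1.24 (adjusted p = 0.0938) had unadjusted p under 0.05. Within R1279Q, 0.59% of rows and 0 of 8 genes were called, and *Dbh* at 1.29 (adjusted p = 0.311) was the 1 gene with an unadjusted p under 0.05. Among F1178L tumors *Dbh* was at -0.72 for the same contrast (adjusted p = 0.377). The difference between these background effects, -2.01 (SE 0.75), did not pass the threshold (adjusted p = 0.226), and 0.0751% of rows and 0 of 8 genes were called in that test. With background goes age, since 129B6F1 mice were older than 129S2 mice for both mutations. Between females and males 0.0536% of rows and 0 of 8 genes were called, and *Slc6a2* was 0.88 higher in females (unadjusted p = 0.0157, adjusted p = 0.952).

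*Phox2a*, a homeodomain factor of the noradrenergic lineage that is known to act on *Dbh*, did pass the test in this respect. In 129B6F1 against 129S2 tumors it was at -3.01 within F1178L (adjusted p = 0.00228 from limma) and at 2.49 within R1279Q (adjusted p = 0.0364), and the 2 effects differed by -5.50 (SE 0.68, adjusted p = 0.00331). Within 129S2 it was 2.82 higher in F1178L than in R1279Q tumors (adjusted p = 0.0034). Over all tumors the genotypes showed no such difference, with 0.67 in F1178L (adjusted p = 0.371) and 0.53 in R1279Q against *MYCN* tumors (adjusted p = 0.588). Of the 7 tested sympathoadrenal transcription factors, *Isl1* rose (0.43, adjusted p = 0.0288) and *Insm1* fell (-0.81, adjusted p = 0.00154) in F1178L against *MYCN* tumors. There 20.1% of all rows were called higher and 26.4% lower, so these counts do not exceed the shares. None was called in R1279Q against *MYCN* tumors.

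Among genes that supply the cofactor and the precursor, 6 of 9 were tested. *Pcbd1* and *Qdpr*, which regenerate tetrahydrobiopterin, rose by 1.77 (adjusted p = 7.93e-05 from limma) and 1.15 (adjusted p = 3.15e-05) in F1178L and by 1.21 (adjusted p = 0.0119) and 0.65 (adjusted p = 0.0228) in R1279Q against *MYCN* tumors. *Spr*, sepiapterin reductase, which completes the cofactor, was lower with both mutations, at -0.36 (adjusted p = 0.0199) and -0.59 (adjusted p = 0.00207). *Pts*, the enzyme between *Gch1* and *Spr*, was at 0.34 (adjusted p = 0.177) in F1178L against *MYCN* tumors. The list thus counted 2 higher and 1 lower of 6 in both comparisons, with medians of 0.17 and -0.19, and 0 of 6 in F1178L against R1279Q tumors. Of all tested rows 26.4% were called lower in F1178L and 7.04% in R1279Q against *MYCN* tumors, and 5.7% in F1178L against R1279Q tumors. The shares called higher were 20.1%, 10.8% and 2.83%.

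Of 15 other genes of monoamine transport and breakdown, 8 were tested. In F1178L against *MYCN* tumors 3 rose and 2 fell, where 20.1% of all rows were called higher and 26.4% lower, so the count is near these shares. *Maob*, the second monoamine oxidase, rose by 2.24 (adjusted p = 0.000107 from limma) and, in R1279Q against *MYCN* tumors, by 1.81 (adjusted p = 0.00469). *Cyb561*, the vesicle cytochrome that renews the ascorbate used by dopamine beta-hydroxylase, rose by 1.48 in F1178L (adjusted p = 0.000828) and was at 0.78 in R1279Q tumors (adjusted p = 0.116). *Slc29a4*, a low-affinity monoamine transporter of the plasma membrane, fell by 1.20 in F1178L against *MYCN* tumors (adjusted p = 0.000472) and was lower than in R1279Q tumors, at -1.03 (adjusted p = 0.0184). The serotonin transporter *Slc6a4* was 2.09 higher in R1279Q than in *MYCN* tumors (adjusted p = 0.015) while F1178L tumors lay below R1279Q tumors, at -2.19 (adjusted p = 0.0227). Tryptophan hydroxylase *Tph2*, of serotonin synthesis, rose by 1.22 (adjusted p = 0.0412) and 1.68 (adjusted p = 0.0185) with the 2 mutations, and was named after its values were seen. *Adh5* was at -0.29 in F1178L against *MYCN* tumors (adjusted p = 0.0184) and, within F1178L, at 0.42 in 129B6F1 against 129S2 tumors (adjusted p = 0.0393). Of 14 catecholamine receptors looked up, 5 had a row and *Adra2c* alone was tested, at 0.07 in F1178L against *MYCN* tumors (adjusted p = 0.88) and at -1.68 in F1178L against R1279Q tumors within 129S2 (adjusted p = 0.0226).

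Markers of cell types moved with the same comparisons, and their part in the results was not tested. Of all tested rows 20.1% were called higher and 26.4% lower in F1178L against *MYCN* tumors. The shares were 10.8% and 7.04% in R1279Q against *MYCN* tumors and 2.83% and 5.7% in F1178L against R1279Q tumors. A count of 1 in a list does not stand out beside these shares. Pan-neuronal markers rose with F1178L, 11 of 14 against *MYCN* tumors with a median of 1.09, among them *Elavl4* (1.43), *Stmn2* (1.59), *Stmn3* (1.15) and *Gap43* (1.73). In R1279Q against *MYCN* tumors 4 of 14 rose, with a median of 0.36, and in F1178L against R1279Q tumors 3 of 14 did (*Snap25*, 0.85, *Tubb3*, 0.76 and *Uchl1*, 0.83), with a median of 0.57. In 129B6F1 against 129S2 tumors within F1178L, *Gap43* was at -1.16 (adjusted p = 0.0264 from limma) and *Syt1* at -2.34 (adjusted p = 0.044). The mean of the 14 neuronal markers ran from 9.85 to 11.34 over the *MYCN* tumors, from 10.40 to 11.64 with R1279Q and from 10.54 to 12.28 with F1178L. Of 7 tested macrophage markers 5 were lower in F1178L than in *MYCN* tumors, with a median of -0.99, and 1 in R1279Q tumors. All 3 tested endothelial markers were lower in F1178L and 2 of 3 in R1279Q tumors. The mean of the 8 adrenal cortex markers reached at most 3.08 in a *MYCN* tumor, 2.14 with R1279Q and 2.20 with F1178L. In that *MYCN* tumor, number 25, 3 of the 8 exceeded log2 4, the highest at 6.34. All 8 stayed below log2 4 in every *MYCN*/*Alk* tumor. Of 6 tested chromaffin markers 3 rose in F1178L against *MYCN* tumors, *Cartpt* by 3.45, *Npy* by 2.79 and *Chga* by 0.97, and *Cartpt* alone in R1279Q tumors, by 3.12. In the other lists, 1 of 2 Schwann cell markers (*Fabp7*) rose with both mutations and the 1 tested erythroid marker (*Alas2*) fell with both. Of 6 fibroblast markers 1 (*Dcn*) rose in F1178L against *MYCN* tumors. The 1 tested cholinergic marker, the neuropeptide gene *Vip*, rose with both mutations. The cholinergic transporter genes *Slc18a3* and *Slc5a7* were too low to be tested. Their medians were 1.94 and 2.08 in *MYCN*, 1.94 and 2.07 in R1279Q and 1.96 and 2.08 in F1178L tumors. The highest value of *Slc18a3* was 6.10, in an F1178L tumor, and that of *Slc5a7* 2.32.

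Genes whose values varied most like each member were sought after centring each gene within the 3 genotypes, by Pearson's r over the 31 tumors, which share their normalization. This is a description, with no test. The nearest genes were *Nr3c1*, the glucocorticoid receptor, for *Th* (r = 0.70), *Psmb1* for *Ddc* (0.67), *Cdkn1a* for *Dbh* (0.64), *Resp18*, an endocrine granule protein, for *Gch1* (0.81), *Galntl6* for *Maoa* (0.81), *Cdkl2* for *Slc18a2* (0.84), *Fam120aos* for *Slc18a1* (0.72) and *Pcdh19* for *Slc6a2* (0.74). The next were *Smyd4* (0.68) and *Snx14* (0.67) for *Th*, *Tbc1d24* (0.65) and *Ccdc30* (0.62) for *Ddc*, *Rc3h1* (0.64) for *Dbh*, *Inpp1* (0.79) for *Gch1*, *Fxyd6* (0.80) and *Gap43* (0.80) for *Maoa*, *Dzank1* (0.80) and *Prkar1b* (0.78) for *Slc18a2*, *Chmp2a* (0.69) for *Slc18a1* and *Map4* (0.74) and *Btbd3* (0.71) for *Slc6a2*. No member was among the 3 nearest of another. Over the 28 pairs of tested members r ran from -0.21, for *Th* and *Maoa*, through a median of 0.29 to 0.69, for *Maoa* and *Slc6a2*.

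Relations between the 6 genes above log2 4 in all tumors were also tested within each genotype, 45 in all, each with 100000 permutations. After adjustment 1 of the 45 passed. In the 10 *MYCN* tumors *Ddc* and *Dbh* were correlated (Pearson r = 0.83, permutation p = 0.00083, adjusted p = 0.0373, Spearman rho = 0.78, permutation p = 0.0107). Without the 2 tumors farthest in *Ddc* r was 0.80, and without tumor 26, left out after the data were seen, it was 0.77. In R1279Q tumors r was 0.64 (permutation p = 0.0488, adjusted p = 0.188) and in F1178L tumors -0.13 (permutation p = 0.696, adjusted p = 0.764). Batches of hybridization were not given.

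Some 129B6F1 tumors are listed with gains or losses of chromosomes that hold these genes. F1178L tumor 2, with a loss of chromosome 14, had a *Gch1* value of 11.32, above the 8.69 to 10.75 of the other 5 F1178L tumors of that background. R1279Q tumor 8, with a loss of chromosomes 14 and 19, had *Gch1* at 9.16 and *Slc18a2* at 11.20, below the other 2 R1279Q tumors of that background, which were at 9.85 and 10.47 for *Gch1* and at 12.62 and 13.18 for *Slc18a2*. F1178L tumor 1, with a gain of chromosome 11, had *Ddc* at 13.14, below the 13.60 to 14.36 of the others. Other values lay inside the range of the tumors compared. *Dbh* of F1178L tumor 2, with a loss of chromosome 2, was at 10.87, against 9.16 to 11.08. R1279Q tumor 9 had gains of part of chromosomes 2 and 11, which may not hold the genes. Its *Dbh* was at 10.17, against 7.94 and 11.01, and its *Ddc* at 13.84, against 13.80 and 13.95. These are single tumors, and no test was made.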

How the data were processed

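The authors hybridized total RNA of 31 tumors to Affymetrix mouse arrays, ran GCRMA, which estimates background from each probe's sequence, with Brainarray probe sets, and deposited the resulting log2 intensities. The version and the genome build were not given in the sources used here. Values ran from 1.31 to 15.46 and array medians from 4.22 to 4.66, and they were used as deposited. Precision is limited by how many tumors there were and by the signal above background. GCRMA gives no call of background, and log2 4 stood for it. Gene names came from the platform table, with 16464 of 17306 rows named, and sequences and chromosomes from RefSeq (GRCm38.p6).

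Sample titles gave the genotype, and tumor numbers linked 18 of them to background, sex, age and genomic profile. limma 3.58.1 (R 4.3.3) fitted the 3 genotypes together over 31 tumors, and mutation by background over 18, on 9322 rows above log2 4 in at least 10 tumors. Tests were two-sided with Benjamini-Hochberg adjustment. On simulated data limma's calls were checked before use. Permutation tests used numpy 2.4.6, with ranks and adjustment from scipy 1.17.1. The members and all gene lists were chosen with earlier results of these data known. All 9 members are named. Of other lists, up to 4 genes with the smallest adjusted p in F1178L against *MYCN* tumors are named, with those called between mutations or backgrounds, and for each tested member the 3 genes of highest centred r (rows with no symbol are left out). *Tph2*, *Penk*, the untested adrenal cortex genes *Star*, *Cyp11a1* and *Nr5a1*, and the untested *Slc18a3* and *Slc5a7* are named outside this rule. Some list genes were not analysed here. Alternatives were other filters, normalizations, weights, moderation, Student's test of the methods, subsets and covariates of background, sex and age, averaged tumors that may share a mouse, and leaving out each tumor.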

Additional observations from a re-analysis of the deposited data

Results flagged for a closer look

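Among 44 sets of values (a gene in a group or subgroup of 4 to 10 tumors, with at least 1 tumor above log2 4), 12 had a highest or lowest tumor farther from its neighbour than Dixon's 95% limit allows. Chance flags about 1 in 20 groups, and the sets share tumors and are not independent. In *MYCN* tumors, tumor 26 was the highest for *Dbh* (8.91), *Maoa* (9.35), *Slc18a2* (11.91) and *Slc6a2* (4.65). Tumor 32 was the lowest for *Gch1* (7.13, the next being 8.55), and tumor 22 the highest for *Slc18a1* (5.53, the next 4.10).

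In R1279Q tumors, *Pnmt* stood out in tumor 14 (6.96, the next 2.63), also among the 129S2 tumors alone, where *Slc18a1* of the same tumor did too (4.68, the next 3.13). *Slc18a1* of tumor 9 was at 6.66. In F1178L tumors, *Pnmt* stood out in tumor 4 among the 129B6F1 tumors (10.47, the next 2.19) and in tumor 29 among the 129S2 tumors (5.23, the next 2.34). The neighbours of these *Pnmt* values were at the background of the array.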

How the results depend on the processing

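In F1178L against *MYCN* tumors the 6 genes above log2 4 in every tumor passed under each normalization, weighting and moderation, with no filter, with Student's test, with the filter at log2 6 and without any one tumor. The count was 8 with *Slc18a1* and *Slc6a2*, which passed the filter largely through F1178L tumors, and 6 at log2 6, which left these out. With F1178L tumors of 129B6F1 only, *Slc18a1* (1.64, adjusted p = 0.0777) and *Slc6a2* missed the threshold, and with 129S2 only *Ddc* did (0.38, adjusted p = 0.0808). In R1279Q against *MYCN* tumors 5 genes passed, 3 to 5 without one tumor (3 without *MYCN* tumor 32) and 3 with R1279Q tumors of 129B6F1 only. In F1178L against R1279Q tumors 3 genes passed. The count was 1 with no filter, 1 with Student's test, 1 with background as a covariate (*Dbh* only), 0 with background and sex as covariates, where *Dbh* was at 1.59 (adjusted p = 0.0537), 5 with array weights, and 1 to 4 without one tumor. Within 129S2 1 gene passed, 4 with Student's test (*Gch1*, *Slc18a1* and *Maoa* besides *Dbh*). Without one tumor 1 to 2 passed, *Dbh* and at times *Slc6a2*, whose p values are description only, as are those of *Slc18a1*.

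The other 6 comparisons (F1178L against R1279Q within 129B6F1, background over both mutations, within each and as the difference between them, and sex) kept 0 called genes under every alternative that was run. No called difference of a member changed its direction. The causes of these changes were not tested. Counts over all tested rows also moved. In F1178L against R1279Q tumors 795 rows were called, but 346 without R1279Q tumor 24, 1184 without F1178L tumor 1, 220 with background and sex as covariates and 3042 with array weights. In R1279Q against *MYCN* tumors 1667 were called, 3479 with array weights and 683 with R1279Q tumors of 129B6F1 only, and in F1178L against *MYCN* tumors 4333, or 2207 with F1178L tumors of 129B6F1 only. Between backgrounds 431 were called over both mutations (140 without F1178L tumor 28, 945 without F1178L tumor 37, 1 with age as a covariate), 588 within F1178L (81 without F1178L tumor 31, 1104 without F1178L tumor 37, 54 with Student's test) and 55 within R1279Q (16 without R1279Q tumor 14, 200 without R1279Q tumor 9, 8 with sex as a covariate), and 7 for the difference between these (1 without F1178L tumor 2, 53 without R1279Q tumor 9). Within 129S2 1092 rows were called, 230 without F1178L tumor 31, 507 with sex as a covariate and 2181 with Student's test. Within 129B6F1 0 were called, at most 48, without R1279Q tumor 5. Covariates of background, sex or age could be fitted for 18 tumors only. No paired analysis was possible because tumor numbers are not shared between groups. *Slc18a1* and *Slc6a2* lie near the background of the array.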
